A study of Mus musculus with 12 samples.

Results

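The genes described are 30 mouse genes that encode JmjC-domain proteins or TET enzymes, out of 21851 protein-coding genes with an annotated coding start. They were taken by name from a list of oxygen-using chromatin enzymes, and all 30 were found in the annotation. For each gene, the peaks within the gene body and 5000 bp on each side were read from 4 deposited peak lists, in mm10 coordinates with GENCODE gene models.

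The lists came from chromatin immunoprecipitation followed by sequencing (ChIP-seq) of mesenchymal stem cells (MSCs), labelled as bone-marrow cells of mice aged 3 to 5 months. The mice were wild-type C57BL/6N males, as the methods give them. The MSCs were isolated from bone at 2% oxygen and sorted as CD45-, Ter119-, Sca-1+ and CD140a+ cells. They then either stayed at 2% oxygen (hypoxia) or were moved to 21% oxygen (normoxia) for about a week, so both groups had an early period in hypoxia in common. Each of H3K27ac, an acetylation of active promoters and enhancers, H3K4me3, a methylation of promoters, and the input control was sequenced in 2 libraries per oxygen level, 12 libraries in all.

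The JmjC histone demethylases and the TET enzymes are dioxygenases that use molecular oxygen, ferrous iron and 2-oxoglutarate. JmjC demethylases remove methyl groups from histone lysines, whereas TET enzymes oxidise 5-methylcytosine in DNA. In MSCs, KDM4B and KDM6B are known to favour osteogenic differentiation. Several of their genes, with Kdm3a, Kdm4b and Kdm4c the best known, are also transcriptional targets of hypoxia-inducible factors, which bind DNA at hypoxia response elements with the core ACGTG or GCGTG.

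Each list combined both libraries of its mark and oxygen level, so none of the values below has a spread between replicates, a read depth or a test, and a difference between lists is a difference between calls. The H3K27ac lists held 15203 peaks in hypoxia and 14832 in normoxia, and the H3K4me3 lists 14606 and 14603. Of the H3K27ac peaks, 589 were hypoxia-only and 218 were normoxia-only, meaning that no base of them was called at the other oxygen level. The H3K4me3 lists had 6 and 3 such peaks. As a check of the labelled cell type, 7 of 8 mesenchymal marker genes had H3K4me3 at a start, all but Ly6a. H3K27ac lay in the window of all 8 but at a start in only 6, and both marks lay at a start in 5. None of 4 haematopoietic markers had a peak of either mark. Both erythroid markers and 1 of 3 endothelial markers (Kdr) had H3K4me3 at a start without H3K27ac there. Another endothelial marker, Pecam1, had an H3K27ac peak in its window at both oxygen levels, without H3K4me3. Since the cells were profiled as populations, the number of cells that carry a mark and its density per cell cannot be told apart.

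The sequences at 6 places carry the contrasts described below, and they are shown here for that reason. The first 5 are the parts of RefSeq promoter windows (build GRCm38, that is mm10) that lie outside exons, and the last is the centre of a peak. They are written 5′ to 3′ on the strand of the gene, with each match to ACGTG or GCGTG and to the reverse complements CACGT and CACGC in capitals. Where matches overlapped they were joined into 1 run. Kdm3a, chr6:71632991-71633167, minus strand, upstream of a start with both marks:
Kdm3a start: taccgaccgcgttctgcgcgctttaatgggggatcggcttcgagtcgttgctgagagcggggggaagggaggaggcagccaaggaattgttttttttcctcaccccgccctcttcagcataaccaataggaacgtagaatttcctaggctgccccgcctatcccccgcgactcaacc
Kdm4c, chr4:74242247-74242496, plus strand, upstream of the first coding start, which had neither mark:
Kdm4c first start: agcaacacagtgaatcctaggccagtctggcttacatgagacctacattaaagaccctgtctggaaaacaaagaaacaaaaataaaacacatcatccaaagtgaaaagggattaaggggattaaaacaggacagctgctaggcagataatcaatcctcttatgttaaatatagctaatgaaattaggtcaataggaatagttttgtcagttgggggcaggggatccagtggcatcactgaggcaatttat
Kdm4c, chr4:74251715-74251878, plus strand, upstream of the second coding start, which had both marks:
Kdm4c second start: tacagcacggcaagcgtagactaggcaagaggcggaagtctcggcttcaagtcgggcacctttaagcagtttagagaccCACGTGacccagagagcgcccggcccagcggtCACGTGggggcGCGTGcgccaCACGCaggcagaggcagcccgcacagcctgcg
Kdm2b, chr5:122988537-122988757, minus strand, upstream starts with H3K4me3 alone:
Kdm2b upstream start: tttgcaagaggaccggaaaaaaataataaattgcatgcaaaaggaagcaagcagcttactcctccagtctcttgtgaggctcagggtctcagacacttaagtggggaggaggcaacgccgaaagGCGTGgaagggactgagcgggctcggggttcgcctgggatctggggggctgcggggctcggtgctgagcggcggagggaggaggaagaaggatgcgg
Kdm2b, chr5:122900368-122900617, minus strand, internal start with both marks:
Kdm2b internal start: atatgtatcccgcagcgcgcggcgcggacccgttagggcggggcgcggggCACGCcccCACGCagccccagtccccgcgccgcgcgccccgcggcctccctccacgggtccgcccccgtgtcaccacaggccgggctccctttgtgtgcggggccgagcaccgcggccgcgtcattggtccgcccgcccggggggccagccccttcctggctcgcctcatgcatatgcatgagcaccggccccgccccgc
Jmjd4, chr11:59459151-59459350, plus strand, centre of the normoxia-only H3K27ac peak:
Jmjd4 peak centre: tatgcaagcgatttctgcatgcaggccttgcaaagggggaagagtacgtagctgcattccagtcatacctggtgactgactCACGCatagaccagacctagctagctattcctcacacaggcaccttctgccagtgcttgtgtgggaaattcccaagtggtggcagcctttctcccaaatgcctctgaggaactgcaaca

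The genes were largely marked as active at both oxygen levels. H3K4me3 lay at a coding start, that is no more than 1000 bp away from where a protein-coding transcript begins, in 29 of the 30 genes in hypoxia and in the same number in normoxia. This was 96.7%, compared with 58.9% of all protein-coding genes. Both marks lay at a start at both oxygen levels in 25 genes (83.3%), compared with 35.8% of all genes. H3K4me3 was there without H3K27ac in 4 genes, namely Hr, Jmjd4, Kdm4d and Riox2, and the last gene, Tet1, had neither mark at its coding starts. Part of this contrast with all genes comes with H3K4me3 itself: among genes with H3K4me3 at a start, both marks were found in 86.2% of the listed genes and in 60.8% of all genes. These counts take any coding start of a gene, so a gene with several had more chances. With only the start at the 5′ end of the gene model, H3K4me3 was found in 26 of the listed genes and H3K27ac in 22.

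**Figure D1:**
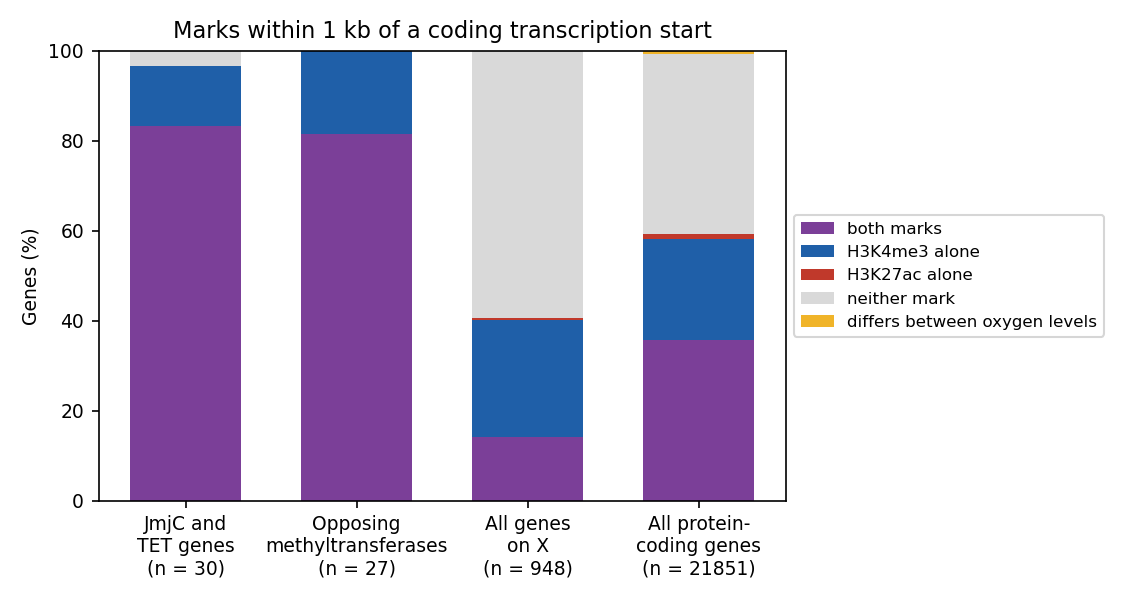
The marks at the coding start are drawn as shares in percent of the genes in each set, for the 30 listed genes, the methyltransferase genes, the X-linked genes and all genes, coloured by the state at both oxygen levels. Both marks make up 83.3% of the listed genes, 81.5% of the 27 methyltransferase genes, 14.2% of the 948 X-linked genes and 35.8% of all genes.

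The list of H3K27ac peaks around these genes was nearly the same at 2% and 21% oxygen. No gene of the 30 had a hypoxia-only H3K27ac peak, where 2.99% of all genes did, a share at which 0.897 of 30 genes would hold such a peak. A normoxia-only H3K27ac peak was found in 1 gene, Jmjd4, where 0.815% of all genes had such a peak. Neither count stands apart from the share in all genes. Among genes with H3K4me3 at a start, 4.62% had a hypoxia-only and 1.26% a normoxia-only H3K27ac peak. The listed genes were also longer, with a median length of 65492 bp compared with 17380 bp over all genes, so their windows were wider. No listed gene had an H3K4me3 peak specific to either oxygen level, as was the case for nearly all genes (0.0229% had such a peak). The 68 distinct segments in the windows of the 30 genes thus comprised 67 that were called at both oxygen levels and 1 that was not.

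Both marks were called together in 32 segments over 26 genes, 2000 to 13000 bp wide with a median of 3000 bp. Of these, 26 held a coding start of the gene itself, 4 held only the coding start of another gene and 2 held no coding start. H3K27ac alone at both oxygen levels made 14 segments at 8 genes, 500 to 24500 bp wide with a median of 6500 bp, and none of these held a coding start of the gene itself. H3K4me3 alone made 21 segments at 18 genes with a median width of 1000 bp, of which 14 held no coding start of any gene. H3K27ac covered a median of 4.91% of a window in hypoxia and 5.25% in normoxia. These medians differ through Jmjd4 alone, since the covered length of every other listed gene was the same in both lists. The median over genes with H3K4me3 at a start was 7.23% and 6.98%, but those genes were shorter, with a median length of 25540 bp compared with 65492 bp for the listed genes.

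**Figure D2:**
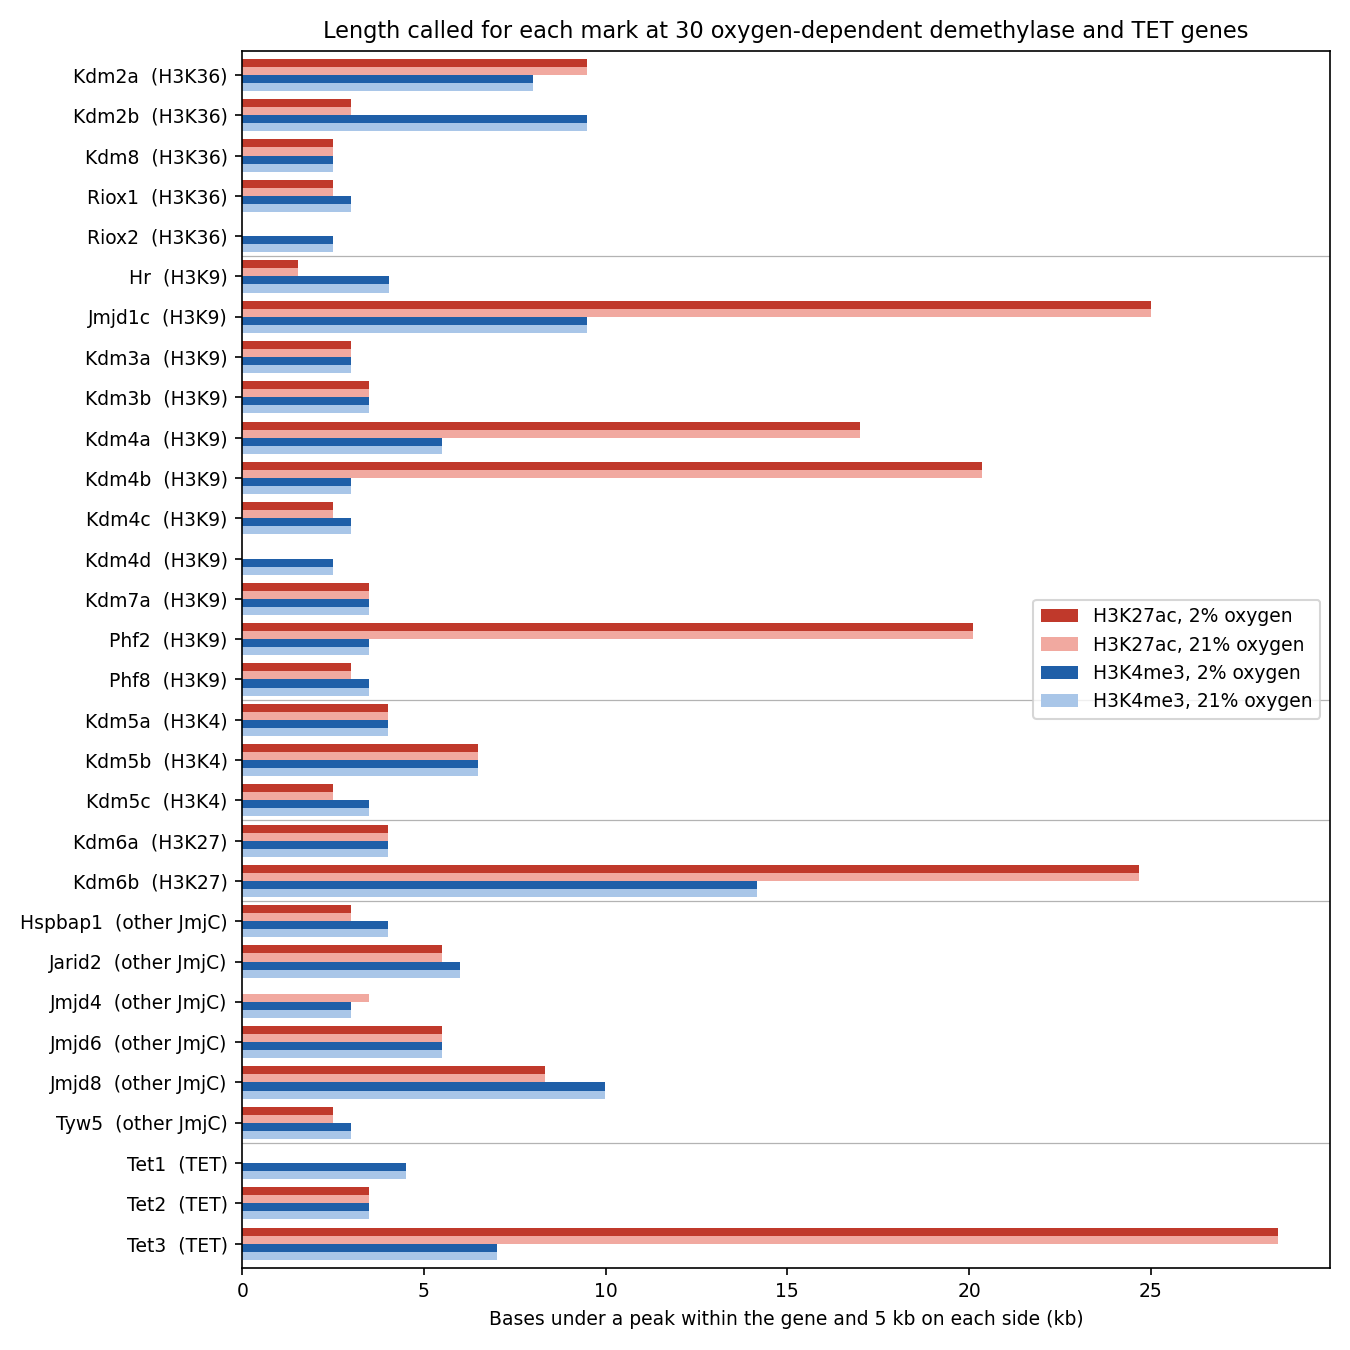
Bars give the length in kb under a peak of each of the 4 lists within a gene and 5 kb on each side, with the genes grouped by substrate. The bars of 2% and 21% oxygen are equal in length except for H3K27ac at Jmjd4, and Tet3, Jmjd1c and Kdm6b have the longest H3K27ac bars.

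The known hypoxia-induced genes were examined first among the H3K9 demethylases. Kdm3a, Kdm4b and Kdm4c all had both marks at a start at both oxygen levels, and none had a peak specific to hypoxia. For Kdm4b and Kdm4c, but not for Kdm3a, the peak at the start was given a higher score in hypoxia. The score is the authors' value per peak. It ran from 50 to 160 or stood at 1000, its definition was not given in the sources used here, and a higher score was read as a more confident call. Because the hypoxia list had more H3K27ac peaks at 1000 than the normoxia list (3379 compared with 2802), each score is also given as its percentile within its own list. A score of 1000 in both lists thus gives percentiles of 88.9 and 90.6.

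Kdm3a, which encodes an H3K9me1 and H3K9me2 demethylase, lies on chromosome 6 from 71588972 to 71632990 on the minus strand. Its window held a single segment, from 71631001 to 71634000, which was called in all 4 lists and covered the coding start. The H3K27ac score there was 127 in hypoxia and 127 in normoxia, at percentiles of 59.7 and 65.6. Kdm3a thus had no higher call in hypoxia, and its sequence printed above held no ACGTG or GCGTG core. The complete RefSeq window, with the exonic bases that are not printed, held 1 match.

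Kdm4b, which encodes a demethylase of H3K9me3 and H3K36me3, lies on chromosome 17 from 56326062 to 56402870 on the plus strand. At its start, from 56324501 to 56327000, the H3K27ac score was 132 in hypoxia and 86 in normoxia, at percentiles of 68.0 and 38.7. The H3K4me3 score of that segment was 132 at both oxygen levels. Every H3K4me3 segment of the listed genes had the same score at both levels, so this equality is not particular to Kdm4b. Both whole H3K4me3 lists also had 2065 peaks at 1000. Kdm4b also had 2 segments with H3K27ac alone. The segment within the gene, from 56353001 to 56362500, scored 66 in hypoxia and 61 in normoxia. The segment across the 3′ end, from 56399501 to 56409500, scored 55 in hypoxia and 61 in normoxia. The direction of the score difference therefore varied within the locus.

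Kdm4c encodes a demethylase with the same substrates as Kdm4b, and lies on chromosome 4 from 74242497 to 74405860 on the plus strand. It has 2 coding starts, and the first had no peak of either mark. Both marks were called around the second, 9439 bp downstream, from 74251001 to 74253500. The H3K27ac score of this segment was 1000 in hypoxia and 129 in normoxia, at percentiles of 88.9 and 68.3, and its H3K4me3 score was 124 at both levels. This was the only start peak of the 30 genes that stood at 1000 in a single H3K27ac list. As shown by the sequences above, the unmarked start lies in DNA with 39.6% G and C and no CpG, and without a motif core. The marked start lies in DNA with 65.9% G and C and 4 runs with a motif core. The sequence CACGTG, which makes up 2 of these runs, is also the E-box bound by other transcription factor families. A match says only that the letters are there, and no binding was measured.

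The start scores were compared in the 25 genes with the same H3K27ac segment at a start in both lists. The start peak scored higher in hypoxia in 5 genes (20%), equally in 19 (76.0%) and higher in normoxia in 1 (4.0%). Over all 8012 such genes, 35.5% scored higher in hypoxia and 6.33% higher in normoxia. The share with a higher score in hypoxia was thus smaller for the listed genes than for all genes, and this difference was not tested. Of the genes with equal scores, 9 of 19 stood at 1000 in both lists, compared with 2228 of 4658 over all genes. No score difference could be seen at this maximum. The 5 genes with a higher score in hypoxia were Kdm4b, Kdm4c, Kdm2b, Kdm2a and Tet3. These counts use the score itself. By percentile Kdm2a went the other way, at 66.4 in hypoxia and 69.8 in normoxia. Of the 3 hypoxia-induced genes, 2 scored higher in hypoxia, compared with 3 of the other 22 genes (13.6%). With a wider set of hypoxia-induced genes that adds Kdm5b, Kdm6b, Kdm2b and Tet1, the counts were 3 of 6 and 2 of 19 (10.5%). With so few genes and no replicate values, these counts are given as a description.

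**Figure D3:**
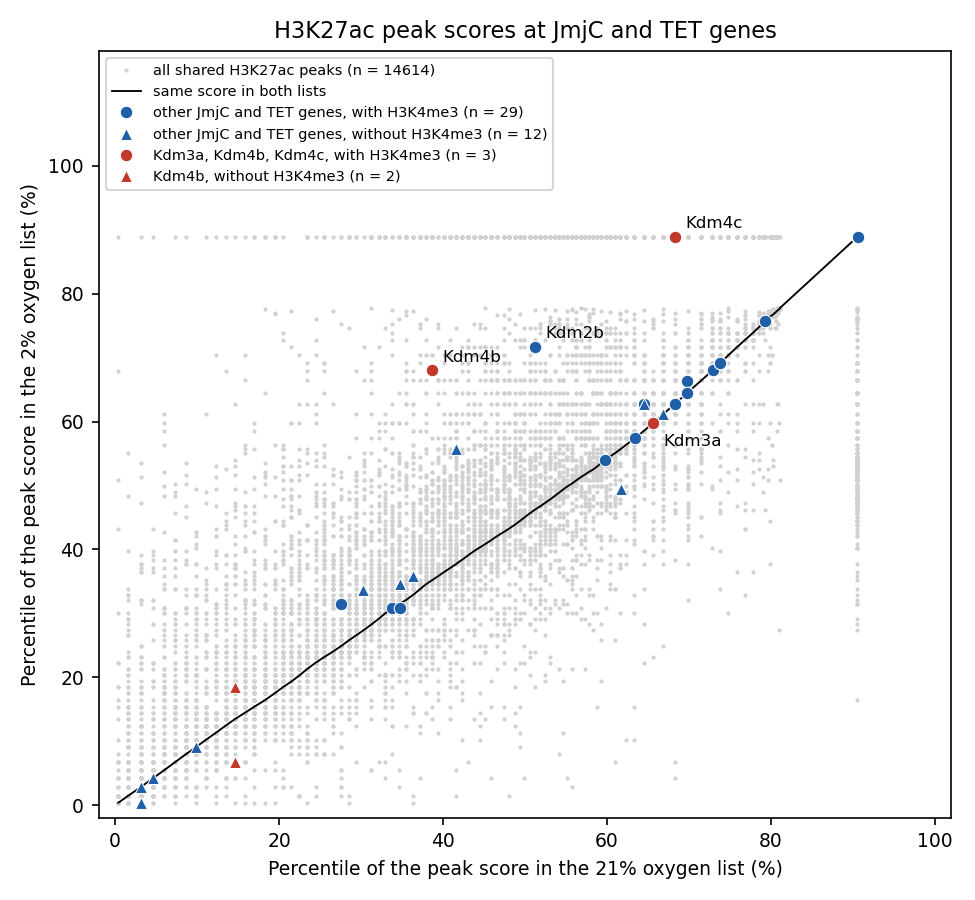
Each point is an H3K27ac peak called at both oxygen levels, with the percentile of its score in the 21% oxygen list on the horizontal axis and in the 2% oxygen list on the vertical axis, where grey points are all 14614 shared peaks, coloured points the listed genes (circles with H3K4me3, triangles without, red for Kdm3a, Kdm4b and Kdm4c) and the line equal scores. Most coloured points lie on or near the line, whereas Kdm4b (68.0 and 38.7), Kdm4c (88.9 and 68.3) and the internal start of Kdm2b (71.7 and 51.2) lie above it. A segment inside Jmjd1c without a coding start (55.7 and 41.6) also lies above it. Of the 46 shared segments of the listed genes, 13 score higher in hypoxia and 4 higher in normoxia.

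Shared H3K27ac segments were also counted by whether they carried H3K4me3. Of the 32 with H3K4me3, 6 scored higher in hypoxia (18.8%), 25 were equal (78.1%) and 1 was higher in normoxia. Over all 7276 such segments, 35.4% were higher in hypoxia and 58.5% were equal. Of the 14 without H3K4me3, 7 scored higher in hypoxia, 4 were equal (28.6%) and 3 were higher in normoxia. Over all such segments, 44.3% were higher in hypoxia, 28.8% were equal and 26.9% were higher in normoxia. Equal scores were thus more frequent with H3K4me3 both at the listed genes and over all segments. The median change in percentile, hypoxia minus normoxia, was -1.67 over the segments of the listed genes and -1.67 over all shared segments. This is also the change of a peak that stands at 1000 in both lists.

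The other H3K9 demethylase genes were Kdm3b, Jmjd1c and Hr of the KDM3 family, Kdm4a and Kdm4d of the KDM4 family, and Kdm7a, Phf2 and Phf8, which carry a PHD finger that reads methylated histone H3. In this group of 11 with the 3 genes above, H3K4me3 lay at a start in all 11 and both marks in 9. Kdm3b, Kdm4a and Phf2 had a start score of 1000 in both H3K27ac lists. The start scores of Jmjd1c (129), Kdm7a (125) and Phf8 (130) were also the same in hypoxia and normoxia. Kdm4d, which is known for its expression in testis, had H3K4me3 from 14499501 to 14502000 and no H3K27ac in its window. That segment also holds the start of the neighbouring gene Cwc15, so the mark cannot be assigned to Kdm4d. Hr, the hairless corepressor, had H3K4me3 alone at its start, and H3K27ac over 1548 bp of its window in a segment that lies outside the gene and holds the start of Nudt18.

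Jmjd1c had the greatest H3K27ac length of the H3K9 group, 25000 bp in 7 segments at both oxygen levels. As a share of the window this was 14.7%, below Kdm4a (32.0%), Phf2 (25.3%) and Kdm4b (23.5%). Both of its coding starts, 58492 bp apart, carried both marks, with an H3K27ac score of 129 in all cases. Another segment with both marks, from 67095501 to 67099000 on chromosome 10, holds the coding start of Reep3. It also holds the starts of further annotated Jmjd1c transcripts, outside the coding starts used here. The largest score difference at Jmjd1c was at an H3K27ac segment inside the gene, from 67222501 to 67228000, with 123 in hypoxia and 90 in normoxia. Another internal segment, from 67110001 to 67117500, scored 84 and 76. Phf2 and Kdm4a also had H3K27ac outside the promoter. In Phf2, 3 touching segments made a run of 22000 bp around the start. In Kdm4a, a run of 13500 bp lay at the 3′ end, where it reaches the start of St3gal3.

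**Figure D4:**
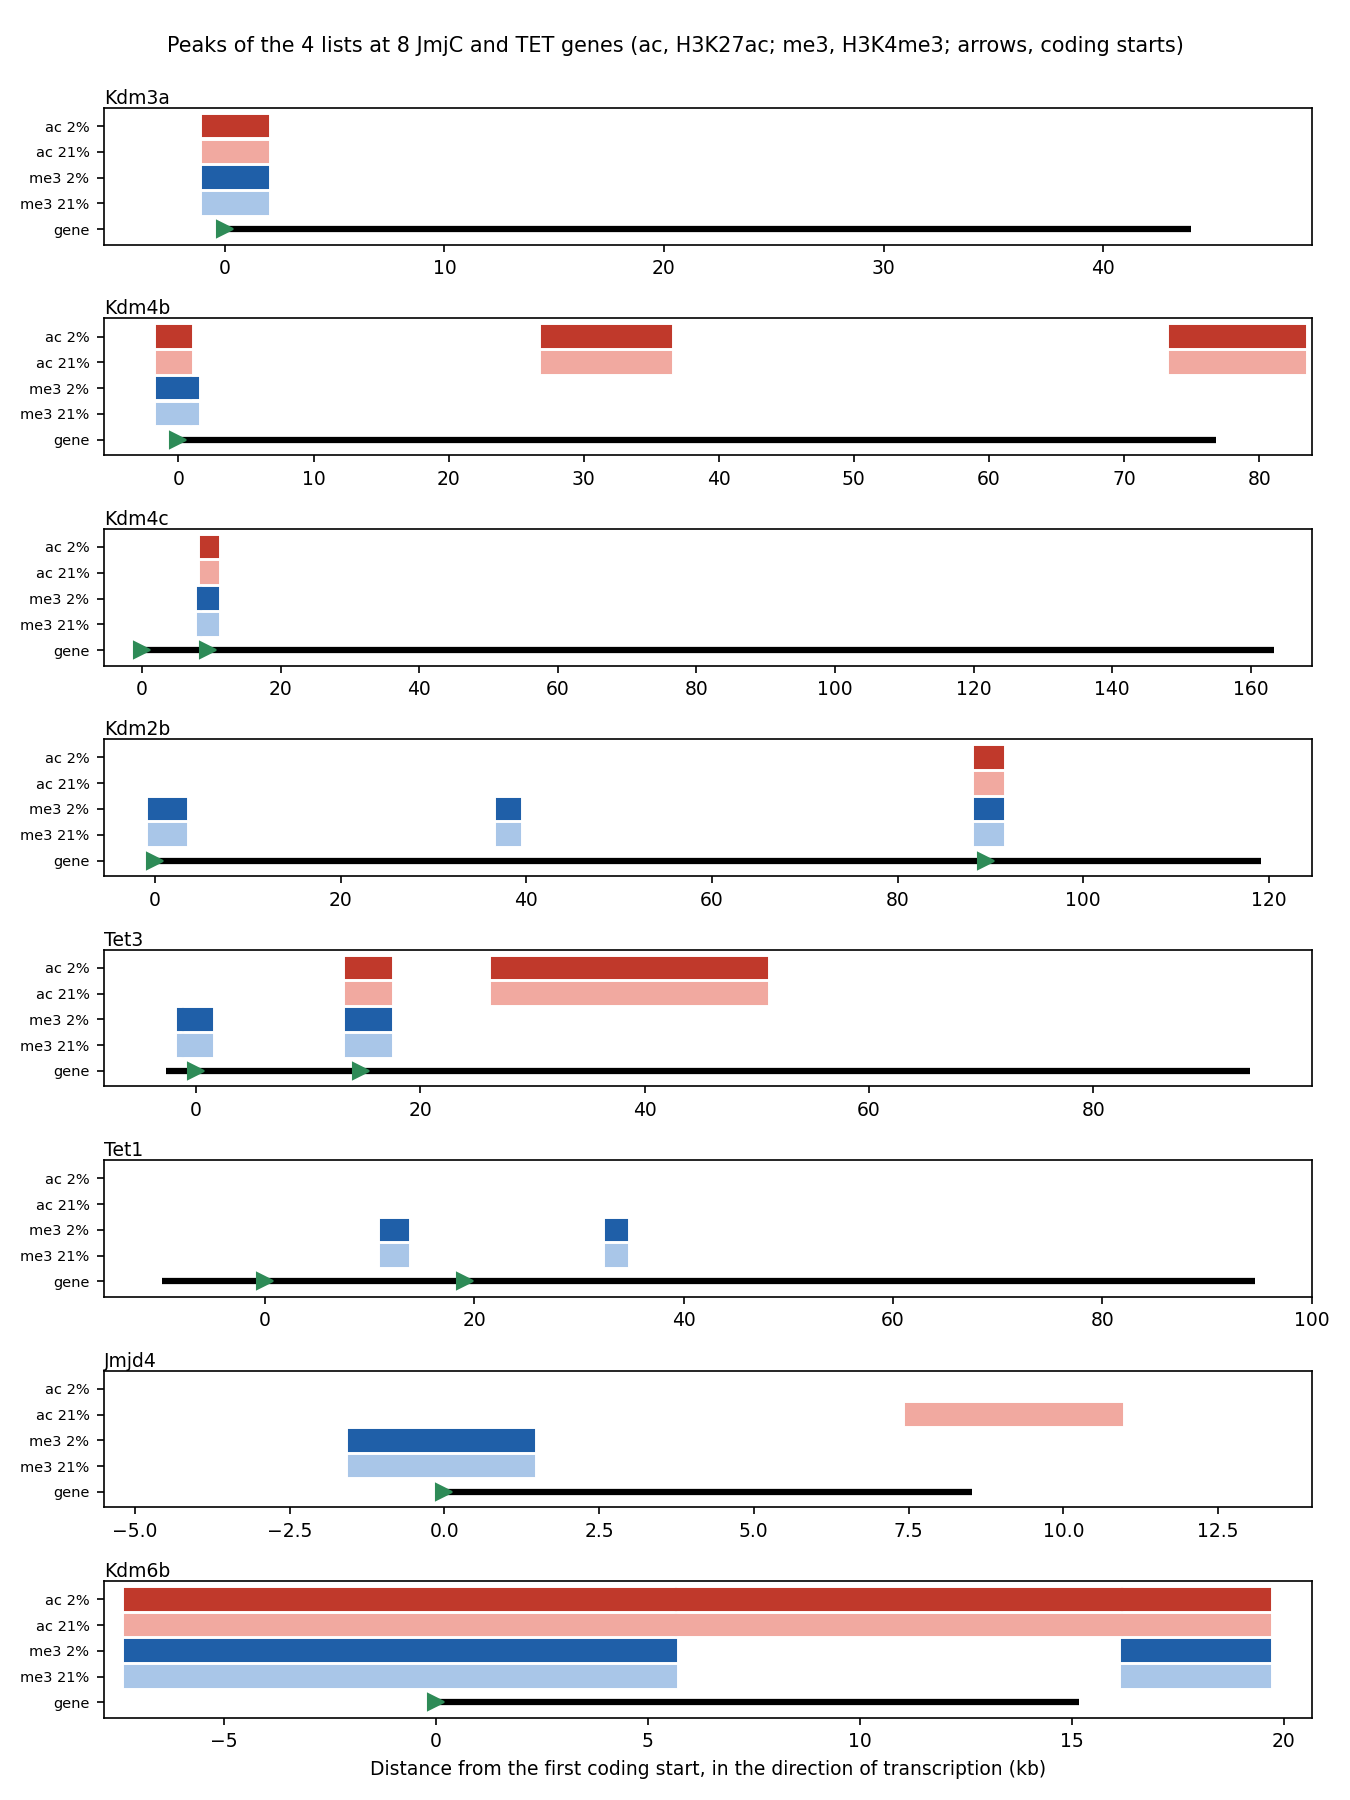
Peaks of the 4 lists are drawn to scale at 8 of the listed genes, with the distance from the first coding start in kb on the horizontal axis, the gene as a black line and its coding starts as green arrows. The bars of 2% and 21% oxygen coincide except at Jmjd4, where H3K27ac is called at 21% oxygen alone, and the starts of Kdm4c, Kdm2b and Tet3 carry different marks.

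The H3K36 demethylases and their relatives comprised Kdm2a, Kdm2b, Kdm8, Riox1 and Riox2. All 5 had H3K4me3 at a start, and 4 had both marks. Kdm2b, a demethylase that also recruits Polycomb repressive complex 1 to CpG islands, lies on chromosome 5 from 122870665 to 122989823 on the minus strand and had separate states at its starts. Its upstream starts lay in H3K4me3 alone, from 122986501 to 122990500. An internal start, 89468 bp downstream, carried both marks from 122898501 to 122901500. The H3K27ac score of the internal start was 135 in hypoxia and 104 in normoxia, at percentiles of 71.7 and 51.2. A further segment of H3K4me3 alone, from 122950501 to 122953000, held no coding start. The internal start lies in DNA with 78.0% G and C, and the upstream start in DNA with 58.4%, as printed above. Transcripts from the internal start of Kdm2b are known to encode a form without the JmjC domain.

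Kdm2a, the paralog of Kdm2b, scored 131 in hypoxia and 130 in normoxia at its first start, at percentiles of 66.4 and 69.8. It also had an internal segment with both marks, from 4331501 to 4334500 on chromosome 19, which held no coding start of the basic annotation but the start of further annotated Kdm2a transcripts. Kdm8 scored 1000 in both lists. Riox1, a ribosomal oxygenase gene, scored 80 in hypoxia and 81 in normoxia and was the only gene of the 30 with the higher start score in normoxia. Riox2 had H3K4me3 and no H3K27ac in its window.

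The H3K4 demethylase genes Kdm5a, Kdm5b and Kdm5c all carried both marks at the start, with equal scores at the 2 oxygen levels of 132, 1000 and 80. Kdm5b was the only gene with a score of 1000 in all 4 lists at its start, from 134559001 to 134563000 on chromosome 1. Another segment upstream, from 134555501 to 134558000, stood at 1000 in all 4 lists as well and held no coding start. Kdm5b is among the genes reported as induced in hypoxia in other cells, and no score difference could be seen where all values stood at the maximum.

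The H3K27 demethylase genes were Kdm6a, also known as Utx, and Kdm6b, also known as Jmjd3. Both had both marks at the start and equal H3K27ac scores, 120 for Kdm6a and 133 for Kdm6b. Kdm6b, on chromosome 11 from 69398508 to 69413675 on the minus strand, was the most fully covered gene of the group. H3K27ac covered 24675 bp of its window (98%) at both oxygen levels, as part of 3 touching segments from 69394001 to 69421000. Its H3K4me3 segment at the start was 13000 bp wide, and only 14 of the 14606 H3K4me3 peaks of the hypoxia list were wider. Kdm6b lies in a dense gene neighbourhood: the same H3K27ac run holds the starts of Tmem88, Cyb5d1 and Naa38, and the wide H3K4me3 segment at the start of Kdm6b holds no other coding start. The middle H3K27ac segment, from 69397501 to 69408000, scored 85 in hypoxia and 81 in normoxia.

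JmjC proteins without an established histone demethylase activity were encoded by 6 genes. All had H3K4me3 at a start and 5 had both marks with equal scores at the 2 oxygen levels. Hspbap1, Jarid2 and Tyw5 stood at 1000 in both H3K27ac lists, Jmjd6 at 140 and Jmjd8 at 129. Jarid2, a subunit of Polycomb repressive complex 2, and Jmjd6, a lysine hydroxylase, had H3K4me3 segments of 5500 bp, which 416 peaks of the list exceeded. Jmjd8 had a segment of 9000 bp, which 56 peaks exceeded. Start peaks in this group were often common to neighbours: the H3K4me3 start peak also held the start of another gene in 5 of the 6, namely Hspbap1 (Dirc2), Jmjd4 (Snap47), Jmjd6 (Mettl23), Jmjd8 (Rhbdl1 and Stub1) and Tyw5 (Maip1). Over the whole list it did so in 6 of 29 genes (20.7%), compared with 20.8% over all genes. For these 6 the marks cannot be assigned to a single gene.

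Jmjd4, which encodes a lysyl hydroxylase of a translation termination factor, held the only segment that differed between the lists. It lies on chromosome 11 from 59450045 to 59458567 on the plus strand. A normoxia-only H3K27ac peak of 3500 bp, from 59457501 to 59461000, overlapped the 3′ end of the gene and ran downstream of it. Its score was 56, in the lowest part of the normoxia list, whose lower quartile was 71. No transcript start lay in it. The start of Jmjd4, from 59448501 to 59451500, had H3K4me3 with a score of 133 at both oxygen levels and no H3K27ac in either. The centre of the normoxia-only peak is printed above. The whole peak had 45.2% G and C and an observed to expected CpG ratio of 0.134. This CpG ratio was below that of every marked RefSeq window of the listed genes, the lowest being 0.576 at Tet3. The G and C content was closer to the lowest among those windows, 47.0% at Kdm5c. Those windows are shorter than the peak. Without the lowest-scoring 25% of the list, the peak is lost and no listed gene has a normoxia-only peak.

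The TET genes each had another state. Tet2 had both marks at its start with an H3K27ac score of 1000 in both lists. Tet3, on chromosome 6 from 83362373 to 83459084 on the minus strand, had H3K4me3 alone at its first coding start, from 83455001 to 83457500. The second coding start, 14717 bp downstream, had both marks from 83439001 to 83443000, with an H3K27ac score of 81 in hypoxia and 73 in normoxia. Further into Tet3, H3K27ac alone covered 24500 bp from 83405501 to 83430000, with a score of 110 in hypoxia and 123 in normoxia, so that the 2 segments differed in opposite directions. With 28500 bp in all, Tet3 had the largest H3K27ac length of the 30 genes.

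Tet1, on chromosome 10 from 62804570 to 62908996 on the minus strand, had no H3K27ac peak in its window and no H3K4me3 at either coding start. H3K4me3 alone was called inside the gene at both oxygen levels, from 62885501 to 62888000 and from 62864501 to 62866500. The first of these segments holds the RefSeq start and the second the start of a further annotated transcript. The absence of H3K4me3 from the start of Tet1 therefore rests on which transcript models are used. With any annotated transcript start, all 30 genes had H3K4me3 at a start.

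Kdm5c, Kdm6a and Phf8 lie on the X chromosome, which is present as a single copy in male cells. All 3 had both marks at the start with equal H3K27ac scores in hypoxia and normoxia. Over all 948 X-linked genes, 40.2% had H3K4me3 at a start and 14.2% had both marks. In X-linked genes with H3K4me3 at the start, both marks were found in 35.4%.

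Genes of enzymes with the opposite activity to the demethylases and TET enzymes were read in the same way, from a list of 27 histone and DNA methyltransferase genes. They are set beside all 30 JmjC and TET genes, of which 6 have no established histone demethylase activity. All 27 had H3K4me3 at a start and 22 (81.5%) had both marks, a share close to the 83.3% of the JmjC and TET genes. Hypoxia-only H3K27ac peaks were found in the windows of 4 of the 27 (14.8%), namely Ezh1, Kmt2a, Nsd1 and Setd2, and normoxia-only peaks in none. Over all genes the hypoxia-only share was 2.99%, and over genes with H3K4me3 at a start it was 4.62%. The share with hypoxia-only peaks was thus 0 of 30 JmjC and TET genes and 4 of 27 methyltransferase genes, and this difference was not tested. At the start, the H3K27ac score was higher in hypoxia in 4 of 21 methyltransferase genes and equal in 17. This was close to the 5 of 25 and 19 of 25 of the JmjC and TET genes. Only genes whose start peak was the same segment in both lists were counted. Nsd1 was left out for that reason, and its start peaks scored 1000 in hypoxia and 56 in normoxia.

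Outside the windows, the nearest hypoxia-only H3K27ac peaks were 26.2 kb from Kdm2b, 35.2 kb from Hr, 71.0 kb from Kdm6b and 79.2 kb from Jmjd8. The nearest normoxia-only peaks, apart from that at Jmjd4, were 37.9 kb from Tet3 and 74.2 kb from Kdm8. These distances are from the gene, and no link between such a peak and a gene was measured.

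The promoters were also compared by sequence. The RefSeq table had 32 windows for 24 of the 30 genes. The table used here had no entry for Hr, Kdm2a, Kdm3b, Kdm4b, Kdm5a and Kdm6b, so the hypoxia-induced Kdm4b is not covered. Overlapping windows of the same gene, as at Kdm2b and Kdm3a, were counted separately. A core of ACGTG or GCGTG on either strand was present in 20 of 32 windows (62.5%), compared with 43.8% of all 32841 windows. The comparison was repeated among windows with the same marks. Of the windows with both marks, 66.7% of those of the listed genes and 67.2% of all had a core. Taken singly in these windows, ACGTG was present in 41.7% of those of the listed genes and 28.1% of all, and GCGTG in 58.3% and 55.7%. For the 6 windows with H3K4me3 alone the share with either core was 66.7%, compared with 62.5% of all such windows. There, ACGTG was present in 16.7% and 24.0%, and GCGTG in 66.7% and 50.7%. Neither of the 2 unmarked windows, at Kdm3a and Kdm4c, had a core, compared with 27.9% of all unmarked windows. The median observed to expected CpG ratio of windows with both marks was 0.854 for the listed genes and 0.825 for all.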

How the data were processed

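Reads had been aligned to mm10 by the authors with bowtie2 and freed of duplicates with Picard, and chromstaR, a hidden Markov model run in its differential mode, was used for peak calling. Per mark and oxygen level, the authors deposited 1 list that pools both libraries, with positions in steps of 500 bp and a score per peak. Over all 4 lists, every overlap was an identical segment (0 partial overlaps among 22555 segments). A joint fit of this kind can assign both oxygen levels alike.

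Peaks were read within each gene and 5000 bp on each side with Python 3.11.15, pandas 2.3.3 and numpy 2.4.6, using GENCODE basic coding starts on GRCm38. Reads, inputs and depth were not analysed here. Counting was checked on simulated peaks, and no test was run. The genes and lists were chosen with earlier results of these data known. The genes given in full were those hypoxia-induced, with a condition-specific peak, without H3K4me3 at a start, or among the 3 with the largest H3K27ac length. Single values of other genes were added after they were seen.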

Additional observations from a re-analysis of the deposited data

How the results depend on the processing

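In all, 41 alternative settings were computed, 39 of them planned and 2 added after the data were seen, and none reversed a result. They changed the flanks to 0 or 20000 bp, the start window to 2500 bp, the starts used, the score minimum, or the treatment of peaks at other genes' starts. The only result that moved was the count of genes with a normoxia-only H3K27ac peak, which fell from 1 to 0 without the lowest-scoring 25% of the list, since the peak at Jmjd4 scored 56. H3K4me3 at a start was found in 25 to 30 genes, H3K27ac at a start in 22 to 25 and any H3K27ac in hypoxia in 25 to 28. Counts of hypoxia-only H3K27ac and specific H3K4me3 peaks were 0 in each setting. For these counts only the flanks of 20000 bp could have given another value. Their other settings remove peaks or take some of the same genes, so a count of 0 had to stay. No paired analysis was possible because the lists combine both libraries, and for the same reason no library could be left out.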

Other observations

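The H3K27ac peaks at 10 genes known as targets of hypoxia-inducible factors were read in the same way. All 10 had H3K4me3 at a start and 8 had both marks. The start score was higher in hypoxia in 4 of these 8 and equal in the other 4. Of all 8012 genes with the same H3K27ac segment at a start in both lists, 35.5% scored higher in hypoxia. Adm, which encodes adrenomedullin, scored 1000 in hypoxia and 109 in normoxia, and the glucose transporter gene Slc2a1 scored 1000 and 129. Ankrd37 scored 122 and 69, and Vegfa 134 and 128. A hypoxia-only H3K27ac peak was present in the window of 1 of the 10 genes, Bnip3, compared with 2.99% of all genes.

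Of 6 genes related to the listed ones, all had H3K4me3 at a start and 3 had both marks, with equal scores at the 2 oxygen levels. These were the flavin-dependent demethylase genes Kdm1a and Kdm1b, the hydroxylase genes Hif1an and Jmjd7, and the Y-linked Uty and Kdm5d. None had a peak specific to either oxygen level.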
